A study of Mus musculus with 8 samples.

Results

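The TNF family genes described here are 4 ligands (Tnf, Lta, Ltb and Tnfsf9) and 3 receptors (Tnfrsf9, Tnfrsf1a and Tnfrsf1b), measured with and without peptidoglycan (PGN) in CD11b+ cells from the NOD and NOD.Idd3 strains of mouse. They were taken by name, as every probe set that the array annotation gives to just 1 of these symbols, which left 7 genes on 10 probe sets out of 18193 genes on 34945 probe sets. NOD mice develop autoimmune diabetes spontaneously, and NOD.Idd3 mice are NOD mice that carry a diabetes-resistance interval, Idd3, from another strain. CD11b (Itgam) is an integrin chain found on monocytes, macrophages, neutrophils and some dendritic and NK cells. PGN is a bacterial cell-wall polymer.

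The study held 8 arrays in 4 groups of 2. NOD cells in medium alone, NOD cells with PGN, NOD.Idd3 cells in medium alone and NOD.Idd3 cells with PGN made up the groups. PGN was used at 5 µg/ml, and the cells of every group were kept for 4 h at 37 °C before RNA was taken. The labels name neither the organ nor the age or sex of the mice, nor whether a sample pooled animals. They call the 2 arrays of a group biological replicates without saying what was replicated. The p-values set a change against the spread between arrays of the same group, pooled over the 4 groups and moderated over all genes. Whether that spread is between animals is not known.

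TNF and lymphotoxin-alpha are made as trimers that signal through the TNF receptors encoded by Tnfrsf1a and Tnfrsf1b, and lymphotoxin-beta anchors lymphotoxin-alpha in a membrane heterotrimer that signals through the lymphotoxin-beta receptor. The ligand encoded by Tnfsf9 (4-1BB ligand) binds the receptor encoded by Tnfrsf9 (4-1BB), best known as a costimulatory receptor of T cells. In myeloid cells TNF is a classical early product of Toll-like receptor signalling through NF-kB, and its release, its mRNA stability and the signalling of its receptors are all under feedback control.

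With PGN, 4 of the 7 genes rose (Tnf, Lta, Tnfsf9 and Tnfrsf9), 1 fell (Ltb), and Tnfrsf1a and Tnfrsf1b did not pass the test when the effect was averaged over strains. Tnfrsf1b passed with the replicate number as a block (adjusted p = 0.0375), and its other probe set rose 4.35-fold. A gene passed when its p-value from limma, adjusted by Benjamini-Hochberg over all 18193 genes, was under 0.05. In that comparison 11.3% of all genes passed, 4.86% upwards and 6.4% downwards. The median change of the 7 genes was 1.39 on the log2 scale, against 0.049 for all genes. The 7 genes were chosen with earlier results of these data known, so these shares and medians are no test of the family. No difference between the strains passed for any of the 7 genes.

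The CD11b+ label was set against marker genes. Itgam, the gene for CD11b, lay between 7.87 and 9.02 (log2 intensity) and Csf1r, the macrophage colony-stimulating factor receptor, between 13.51 and 14.05, above array medians of at most 5.50. Ncr1, an NK cell receptor, lay between 3.59 and 4.73, near the arrays' 25th percentiles of 3.84 to 4.05. Cd3e, of the T cell receptor complex, lay between 6.51 and 7.30 and so above the medians. Ly6g lacked a probe set with just 1 symbol and was not analysed here. The summed linear intensity of 12 T cell markers ran from 8079 to 10563 in unstimulated arrays and from 8410 to 10399 with PGN. That sum joins markers that moved in opposite directions with PGN, as Il7r rose and Cd3d fell. Cd3d was brighter than Cd3e, at 11.61 to 12.44 (log2 intensity) unstimulated and 10.18 to 11.03 with PGN. The sum of 11 B cell markers went from 2202 and 5453 unstimulated to 1666 and 2990 with PGN in NOD (replicates 1 and 2), and from 991 and 1620 to 903 and 1312 in NOD.Idd3. It was thus lower with PGN in each same-numbered pair, and lower in every NOD.Idd3 array than in every NOD array. The sum of 11 neutrophil markers ran from 110916 to 144949 unstimulated and from 98796 to 104360 with PGN. With PGN, 1 of 12 T cell markers rose (Il7r) and 1 fell (Cd3d), 0 of 11 B cell markers passed, 1 of 9 NK cell markers rose (Gzmb) and 1 fell (Prf1), 3 of 11 neutrophil markers fell (Mmp8, Mmp9 and Cxcr2), 0 of 12 macrophage and monocyte markers passed, and 1 of 8 dendritic cell markers rose (Ccr7). Of all genes 4.86% rose and 6.4% fell in that comparison. With the replicate block, 4 B cell markers fell (Fcrla, Cd79b, Cd79a and Cd22), 2 T cell markers fell (Cd3d and Cd3g) and 1 rose. Of all 18193 genes 1311 rose and 1771 fell with the block, or 16.9% in either direction. The block also gave 2 NK cell markers that rose (Gzma and Gzmb) and 2 that fell (Prf1 and Klrd1), 4 neutrophil markers that fell, Csf3r being the added one, and 1 macrophage marker that fell (Itgam, -0.48, adjusted p = 0.0464 with the block). These genes are named after their values were seen. In RNA from a cell population, fewer cells of a type and less RNA per cell cannot be told apart.

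The promoters of 3 genes are shown: Tnf and Ltb, neighbours that moved in opposite directions, and Tnfrsf9, the receptor gene that passed as rising in the average over strains without the block. Each is the 250 bases before a start site in RefSeq's GRCm38.p6 annotation, written 5′ to 3′ on the gene's own strand, with capitals marking matches to the NF-kB consensus, the AP-1 motif TGANTCA, the CRE motif TGACGTCA or TATAAA on either strand. The Tnf window is chr17:35202008-35202257 on the minus strand, the Ltb window chr17:35194257-35194506 on the plus strand, and the Tnfrsf9 window, of the gene's downstream start, chr4:150927749-150927998 on the plus strand.
Tnf: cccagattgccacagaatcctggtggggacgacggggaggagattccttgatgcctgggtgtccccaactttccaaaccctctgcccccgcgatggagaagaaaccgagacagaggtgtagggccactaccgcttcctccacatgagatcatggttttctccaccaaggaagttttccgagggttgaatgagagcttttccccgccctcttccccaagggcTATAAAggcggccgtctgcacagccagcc
Ltb: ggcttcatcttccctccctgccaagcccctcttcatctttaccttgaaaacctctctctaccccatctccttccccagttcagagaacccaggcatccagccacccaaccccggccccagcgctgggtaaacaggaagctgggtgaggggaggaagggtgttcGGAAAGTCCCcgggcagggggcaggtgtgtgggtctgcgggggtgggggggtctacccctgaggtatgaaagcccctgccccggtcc
Tnfrsf9: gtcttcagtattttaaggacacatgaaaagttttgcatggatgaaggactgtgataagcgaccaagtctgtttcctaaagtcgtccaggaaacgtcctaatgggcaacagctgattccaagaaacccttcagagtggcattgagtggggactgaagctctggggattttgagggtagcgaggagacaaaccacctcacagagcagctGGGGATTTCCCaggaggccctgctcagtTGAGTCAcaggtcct
The Tnf window held TATAAA at 29 to 24 bases before the start and no match to the other 3 marked motifs. The Ltb window held 1 match to the NF-kB consensus, on the reverse strand, at 87 to 78 bases before the start. The Tnfrsf9 window held 3 overlapping NF-kB matches in a single stretch at 43 to 33 bases before the start. The match at 42 to 33 bases was counted on both strands. That window also held an AP-1 match at 15 to 9 bases, and the window of the other Tnfrsf9 start held none of the 4 marked motifs. The windows of Lta, Tnfrsf1a and Tnfrsf1b, which are not shown, held no NF-kB, AP-1 or CRE match. That of Lta held TATAAA at 167 to 162 bases before the start. Of 32851 mouse promoter windows of this length, 3.90% held the NF-kB consensus, 6.75% the AP-1 motif, 1.55% the CRE motif and 12.4% TATAAA. A match is a stretch of letters and no measurement of binding, and 6 of the 7 genes had a promoter in the table used here.

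Tnfsf9 changed most of the 7 genes. The unstimulated NOD arrays read 7.87 and 7.77 (log2 intensity) and the unstimulated NOD.Idd3 arrays 8.25 and 8.69. With PGN the NOD arrays read 12.03 and 12.25 and the NOD.Idd3 arrays 12.46 and 12.38. All 4 PGN arrays were above all 4 unstimulated arrays, and within each condition both NOD.Idd3 arrays were above both NOD arrays. The strains did not overlap for Tnfrsf1a either, with NOD.Idd3 lower unstimulated (-0.28) and higher with PGN (0.14). The share of all genes without overlap between the strains was not counted. The rise averaged over strains was 4.13 ± 0.16 (log2, SE, limma over 8 arrays), or 17.6-fold, with an adjusted p of 9.58e-06, and it ranked 15 of 18193 genes from the largest rise. It was 4.32 ± 0.22 in NOD (adjusted p = 0.000109) and 3.95 ± 0.22 in NOD.Idd3 (adjusted p = 0.000352).

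Tnf, the founding ligand of the family, was already bright without PGN. Its unstimulated NOD arrays read 11.57 and 10.80 and its unstimulated NOD.Idd3 arrays 11.46 and 11.60. With PGN it read 13.13 and 13.12 in NOD and 13.15 and 12.77 in NOD.Idd3. The PGN arrays lay above the unstimulated arrays without overlap, while the strains overlapped in both conditions, and NOD unstimulated replicate 2 was the lowest array. Tnf rose by 1.68 ± 0.20 averaged over strains (3.21-fold, adjusted p = 0.00134, limma). The rise was 1.93 ± 0.28 in NOD (adjusted p = 0.00935) and 1.43 ± 0.28 in NOD.Idd3 (adjusted p = 0.0320). The averaged rise passed with any 1 array left out. In NOD the call was lost without NOD unstimulated replicate 2 (1.55, adjusted p = 0.0587) or NOD PGN replicate 2 (adjusted p = 0.0712). In NOD.Idd3 it was lost without any 1 of the 4 NOD.Idd3 arrays (adjusted p from 0.113 to 0.178) or either NOD PGN array (adjusted p = 0.0502).

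Lta, the gene for lymphotoxin-alpha, read low without PGN, at 5.03 and 5.02 in NOD and 5.29 and 4.78 in NOD.Idd3, below the array medians. With PGN it read 7.01 and 6.40 in NOD and 6.51 and 5.73 in NOD.Idd3. No PGN array overlapped an unstimulated array, and replicate 2 minus replicate 1 with PGN was -0.61 in NOD and -0.78 in NOD.Idd3. Lta rose by 1.39 ± 0.23 averaged over strains (2.62-fold, adjusted p = 0.00646, limma), and this call held with any 1 array left out. In NOD it rose by 1.68 ± 0.33 (adjusted p = 0.0274), a call lost without any 1 of the 4 NOD arrays (1.38 to 1.99, adjusted p from 0.0664 to 0.154). In NOD.Idd3 the change of 1.09 ± 0.33 missed the threshold (adjusted p = 0.133), which it met once the replicate number was a block (adjusted p = 0.0291).

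Ltb, which encodes the membrane-anchoring lymphotoxin-beta, moved the other way. It read 11.44 and 11.50 in unstimulated NOD arrays, 11.19 and 11.07 in unstimulated NOD.Idd3 arrays, 10.15 and 8.91 in NOD arrays with PGN, and 9.76 and 8.60 in NOD.Idd3 arrays with PGN. All 4 PGN arrays were below all 4 unstimulated arrays, and in each strain the replicate 2 PGN array was the lower. Ltb fell by 1.94 ± 0.32 on the log2 scale averaged over strains (adjusted p = 0.00577, limma), and it ranked 80 from the largest fall. The averaged call held with any 1 array left out. Within a replicate number the PGN array minus its unstimulated partner was -1.29 and -2.59 in NOD and -1.43 and -2.46 in NOD.Idd3. Within a strain the change was -1.94 ± 0.45 in NOD (adjusted p = 0.0513) and -1.95 ± 0.45 in NOD.Idd3 (adjusted p = 0.0565), and with the replicate block these adjusted p-values were 0.0130 and 0.0151. Without NOD PGN replicate 1 the NOD change was -2.56 (adjusted p = 0.0347). Without NOD.Idd3 PGN replicate 1 the NOD.Idd3 change was -2.52 (adjusted p = 0.0445). Leaving out a PGN array of the other strain also brought each under 0.05, at 0.0371 in NOD without either NOD.Idd3 PGN array and 0.0354 in NOD.Idd3 without either NOD PGN array. Ltb is expressed by lymphocytes as well. The medians of the T and B cell marker lists changed by -0.21 and -0.10 with PGN. Of the 12 T cell markers 1 fell (Cd3d, -1.48) and 1 rose (Il7r), and 0 of the 11 B cell markers passed, where 6.4% of all genes fell. Whether they passed or not, 4 of the 12 and 4 of the 11 changed upwards. With the block, under which the Ltb calls within each strain passed, 2 T cell markers fell and 1 rose. In that fit 4 B cell markers fell, by 0.58 (Cd22) to 1.20 (Fcrla), and 1771 of all 18193 genes fell. The B cell sum, like Ltb, was lower with PGN in all 4 same-numbered pairs. The T cell sum was higher with PGN in the replicate 1 pair of each strain and lower in the replicate 2 pair of each strain. What lymphocyte RNA contributed to the Ltb values was not tested.

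**Figure D1:**
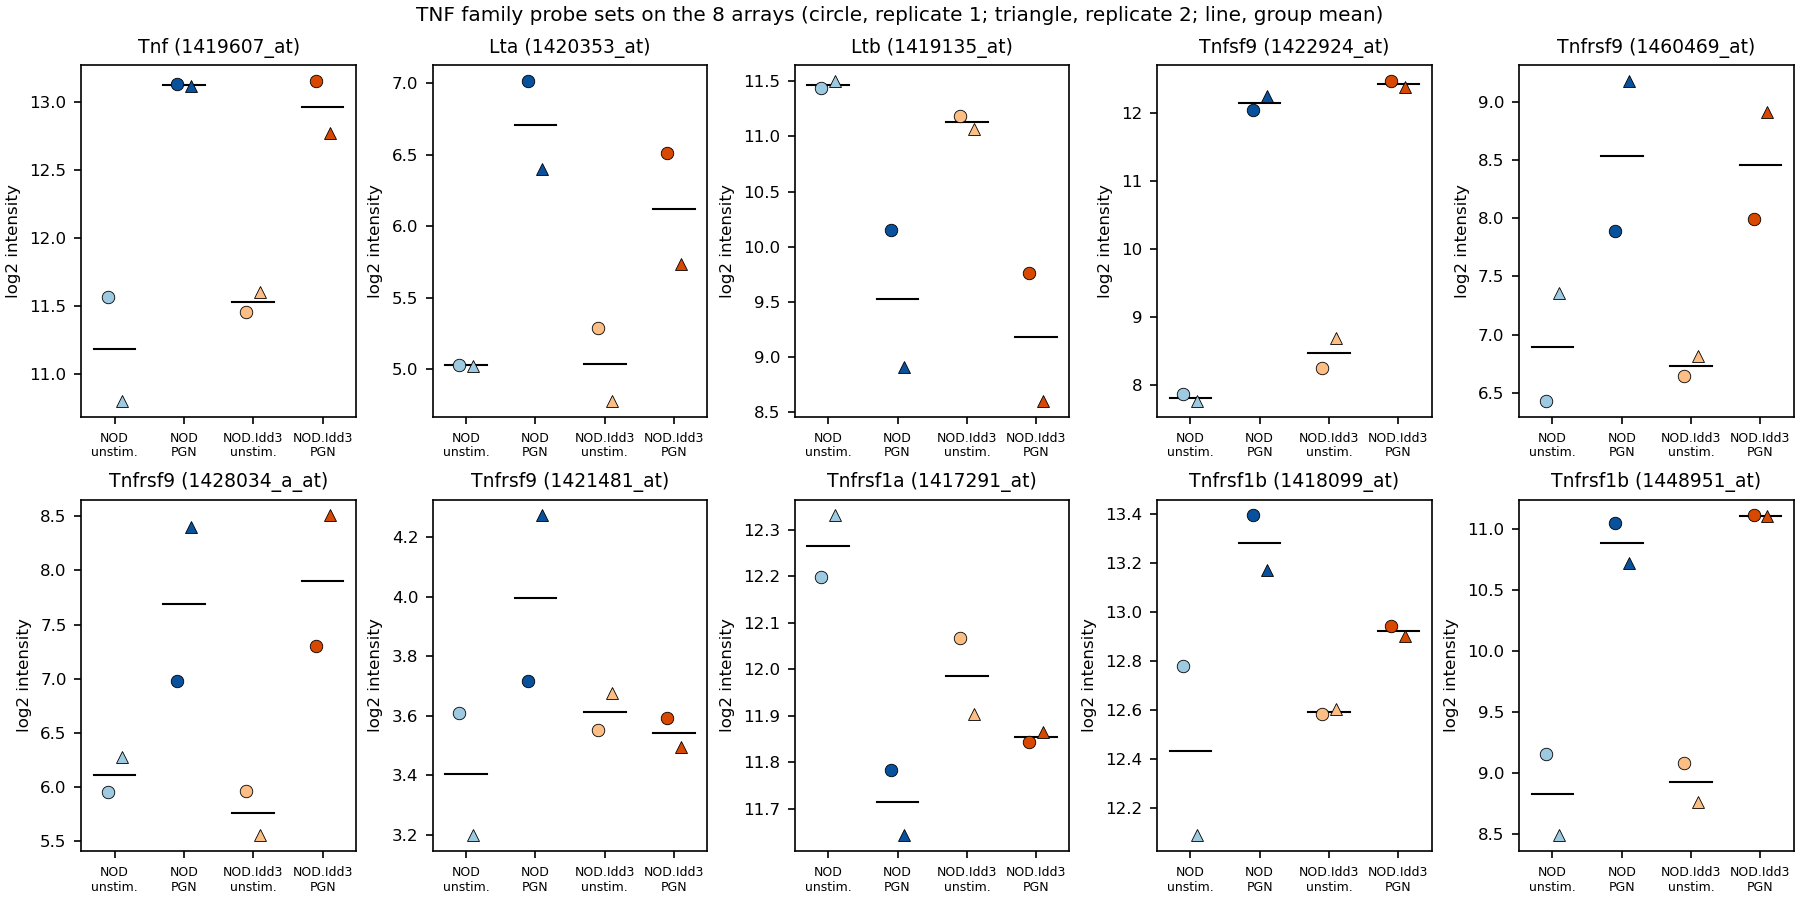
Log2 intensity (y axis, with its own range in each panel) of the 10 probe sets of the 7 genes, by group of strain and PGN (x axis), with 1 point per array and a line at the group mean. Tnfsf9 lies between 7.77 and 8.69 without PGN and between 12.03 and 12.46 with it, and Ltb is the ligand whose PGN arrays lie below the unstimulated ones.

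Tnfrsf9, the receptor of the Tnfsf9 product, had 3 probe sets. On the brightest, 1460469_at, the arrays read 6.43 and 7.36 in unstimulated NOD, 7.89 and 9.18 in NOD with PGN, 6.65 and 6.82 in unstimulated NOD.Idd3, and 8.0 and 8.91 in NOD.Idd3 with PGN. The conditions did not overlap, and replicate 2 exceeded replicate 1 with PGN by 1.29 in NOD and 0.91 in NOD.Idd3. Tnfrsf9 rose by 1.68 ± 0.34 averaged over strains (3.21-fold, adjusted p = 0.0149, limma). That call was lost without NOD.Idd3 unstimulated replicate 1 (adjusted p = 0.0521) or NOD.Idd3 PGN replicate 2 (adjusted p = 0.0528). Within NOD the change was 1.64 ± 0.48 (adjusted p = 0.103) and within NOD.Idd3 1.72 ± 0.48 (adjusted p = 0.106), and both passed with the replicate block, at adjusted p = 0.00977 and 0.00951. When every probe set was tested by itself, 1428034_a_at rose by 1.86 ± 0.35 (adjusted p = 0.0109). The dim probe set 1421481_at, at 3.20 to 4.27 near the arrays' 25th percentiles, changed by 0.26 ± 0.18 (adjusted p = 0.413).

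Tnfrsf1b encodes TNF receptor 2, and its 2 probe sets changed unequally. On 1418099_at, the brighter, the arrays read 12.78 and 12.09 in unstimulated NOD, 13.40 and 13.17 in NOD with PGN, 12.58 and 12.60 in unstimulated NOD.Idd3, and 12.94 and 12.90 in NOD.Idd3 with PGN. The PGN arrays lay above the unstimulated arrays, with NOD.Idd3 at 12.90 against a highest unstimulated value of 12.78. The averaged change of 0.59 ± 0.18 missed the threshold (adjusted p = 0.0734, limma), which it met under the block (adjusted p = 0.0375). It also passed without NOD unstimulated replicate 1 (0.76, adjusted p = 0.0203), as did the NOD change (1.20, adjusted p = 0.0353). With all arrays the change was 0.85 ± 0.25 in NOD (adjusted p = 0.111) and 0.33 ± 0.25 in NOD.Idd3 (adjusted p = 0.657).

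On the other Tnfrsf1b probe set, 1448951_at, the arrays read 9.16 and 8.49 in unstimulated NOD, 11.05 and 10.72 in NOD with PGN, 9.08 and 8.76 in unstimulated NOD.Idd3, and 11.11 and 11.10 in NOD.Idd3 with PGN. No PGN array came near an unstimulated one. In the fit over all 34945 probe sets, where 11.3% passed (16.7% with the block), this probe set rose by 2.12 ± 0.19 averaged over strains (4.35-fold, adjusted p = 0.000483), by 2.06 in NOD (adjusted p = 0.00701) and by 2.18 in NOD.Idd3 (adjusted p = 0.00668). The within-array difference of 1418099_at minus 1448951_at was 3.64 ± 0.14 (log2, SD, n = 4) unstimulated and 2.11 ± 0.34 (SD, n = 4) with PGN. The PGN mean minus the unstimulated mean was -1.53, and the conditions did not overlap. The pair of probe sets was compared after their values were seen, so this is a description without a test.

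Tnfrsf1a, the gene for TNF receptor 1, which carries a death domain, changed least. It read 12.20 and 12.33 in unstimulated NOD, 11.78 and 11.64 in NOD with PGN, 12.07 and 11.90 in unstimulated NOD.Idd3, and 11.84 and 11.86 in NOD.Idd3 with PGN. The PGN arrays were all below the unstimulated ones, by as little as 11.86 against 11.90. The averaged change of -0.34 ± 0.14 did not pass (adjusted p = 0.165, limma; unadjusted p = 0.0362), nor did it with any array left out or with the block. It was -0.55 ± 0.20 in NOD and -0.13 ± 0.20 in NOD.Idd3. Counted without a test, 5 of the 7 genes had all PGN arrays above all unstimulated arrays, as 8.6% of all genes did, and 2 had them all below, as 9.41% did.

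Within a strain fewer of the 7 genes passed. In NOD 3 rose (Tnf, Lta and Tnfsf9), where 3.94% of all genes passed (1.81% upwards, 2.13% downwards). In NOD.Idd3 2 rose (Tnf and Tnfsf9), where 3.14% passed (1.89% upwards, 1.25% downwards). With the replicate block, 4 rose and Ltb fell in each strain, against 8.72% of genes passing in either direction in NOD and 6.63% in NOD.Idd3. Averaged over strains, the block gave 5 that rose and 1 that fell, against 16.9% of genes passing. Between 3 and 5 of the 7 rose when each array in turn was left out of the averaged comparison, and Ltb fell each time.

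**Figure D2:**
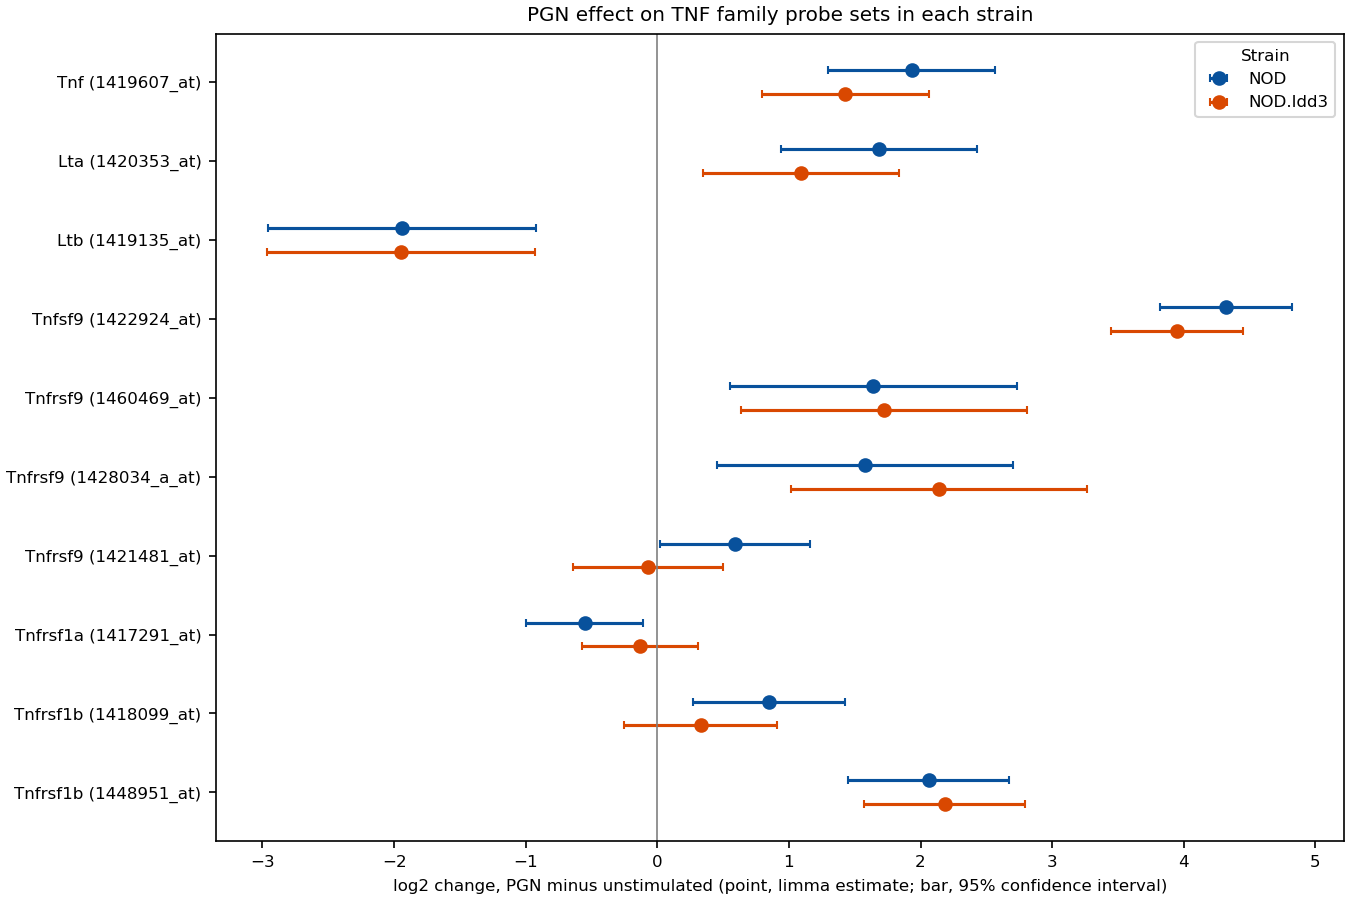
Change with PGN (log2, x axis) of each of the 10 probe sets in NOD and in NOD.Idd3, with the 95% confidence interval from limma as a bar. Tnfsf9 stands at 4.32 and 3.95, and Ltb at -1.94 and -1.95.

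The strains were compared in 4 ways for each gene: unstimulated, with PGN, averaged over conditions, and by the difference in PGN effect. None of the 7 genes passed in any of them. For the difference in PGN effect (NOD.Idd3 minus NOD), 0 of 18193 genes passed in limma and 314 had an unadjusted p under 0.05, and none of the 7 was among those. The difference was -0.51 for Tnf (95% interval -1.40 to 0.39), -0.59 for Lta (-1.64 to 0.46) and -0.37 for Tnfsf9 (-1.09 to 0.34). It was -0.01 for Ltb (-1.45 to 1.43) and 0.08 for Tnfrsf9 (-1.46 to 1.62), and 0.42 for Tnfrsf1a (-0.21 to 1.05) and -0.52 for Tnfrsf1b (-1.34 to 0.30). With 2 arrays a group these intervals leave room for differences of more than 1 on the log2 scale in at least 1 direction for each gene, so that equal responses are not shown.

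Tnfsf9 was the gene of the 7 with the smallest unadjusted p between strains. Its level was higher in NOD.Idd3 by 0.65 ± 0.22 unstimulated (unadjusted p = 0.0173, adjusted p = 1.00, limma) and by 0.46 ± 0.16 averaged over conditions (unadjusted p = 0.0166, adjusted p = 0.712). With PGN the difference was 0.28 ± 0.22 (adjusted p = 0.854). Over all genes 0 passed in the averaged comparison, with 1175 at an unadjusted p under 0.05. With the replicate block 27 genes (0.148%) passed, none of them of the 7. Of those 27 genes, 25 were lower in NOD.Idd3. Among the B cell markers the median strain difference was -1.10, with 0 of 11 passing, and Ms4a1, Cd79b and Blk passed as lower in NOD.Idd3 with the block. Among the macrophage and monocyte markers the median was -0.19, with 0 of 12 passing, and 4 passed as lower in NOD.Idd3 with the block. No T cell, NK cell, neutrophil or dendritic cell marker passed in either fit. The part of cell makeup in the strain values was not tested.

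**Figure D3:**
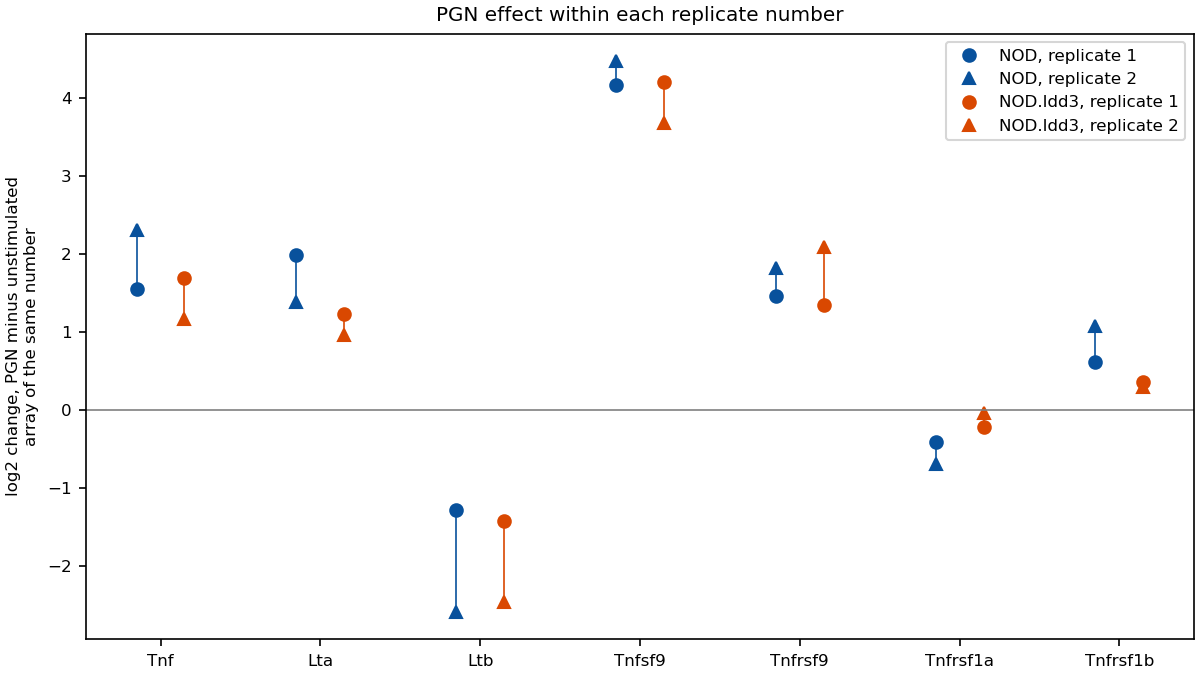
Difference between the PGN array and the unstimulated array of the same strain and replicate number (log2, y axis) for the 7 genes, with a circle for replicate 1 and a triangle for replicate 2. For Ltb both replicate 2 differences (-2.59 and -2.46) lie below both replicate 1 differences (-1.29 and -1.43).

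The wider family was read from lists of genes. Of 18 superfamily ligands listed, 14 were measured, 4 rose and 2 fell with PGN (median change 0.34, against 0.049 for all genes). Besides the members described above these were Cd70, the ligand of CD27, which rose by 1.24 ± 0.27 (adjusted p = 0.0200), and Tnfsf13b, the B cell survival factor BAFF, which fell by 1.06 ± 0.21 (adjusted p = 0.0147). Cd70 was dim, at 4.99 to 5.33 (log2 intensity) unstimulated, below the array medians, and at 5.65 to 7.36 with PGN. Tnfsf13b read 9.05 and 9.89 in unstimulated NOD, 7.66 and 8.15 in NOD with PGN, 9.34 and 9.18 in unstimulated NOD.Idd3 and 8.76 and 8.65 in NOD.Idd3 with PGN. Its difference in PGN effect between strains was 1.02 ± 0.43 (unadjusted p = 0.0412, adjusted p = 1.00), and with all its probe sets averaged the change was -0.50 and did not pass (adjusted p = 0.0986). Tnfsf14, or LIGHT, changed by 1.02 ± 0.28 and just missed the threshold (adjusted p just above 0.05), which it met with the block (adjusted p = 0.0212). The number of ligands that rose was 3 to 5 with each array left out in turn, and 1 fell in place of 2 without NOD.Idd3 unstimulated replicate 1 or NOD.Idd3 PGN replicate 2.

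Of 28 receptors listed, 27 were measured, 7 rose and 1 fell (median change 0.25). Cd40, the costimulatory receptor of antigen-presenting cells, rose by 1.10 ± 0.17 (adjusted p = 0.00445). Tnfrsf8 (CD30) rose by 1.08 ± 0.25, Tnfrsf11a (RANK, receptor of the osteoclast factor RANKL) by 0.72 ± 0.14, and Tnfrsf13b (TACI, a receptor for BAFF) by 0.89 ± 0.17. Tnfrsf8 was dim, at 4.44 to 4.93 (log2 intensity) unstimulated, below the array medians, and at 5.15 to 6.28 with PGN. Tnfrsf21, the death receptor DR6, fell by 1.94 ± 0.35 (adjusted p = 0.00944). Tnfrsf22 and Tnfrsf23, neighbouring decoy receptor genes, rose by 1.78 ± 0.39 and 1.93 ± 0.41. These 2 are near copies of each other, so how far their probe sets read separate transcripts is uncertain. Ltbr, the receptor for the lymphotoxin heterotrimer and LIGHT, changed by 0.27 ± 0.21 (adjusted p = 0.472). The number of receptors that rose fell to 3 without NOD.Idd3 unstimulated replicate 2 and to 4 without NOD.Idd3 unstimulated replicate 1, NOD PGN replicate 1 or NOD unstimulated replicate 2.

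Of 29 genes listed for signalling below the receptors, 26 were measured, 5 rose and 3 fell (median change 0.15). Those that rose were the adaptors Traf1 (0.90 ± 0.14, adjusted p = 0.00413) and Traf2 (0.69 ± 0.14), the caspase-8 inhibitor Cflar (0.76 ± 0.19), the deubiquitinase Otulin (0.80 ± 0.18) and Tnfaip3 (1.30 ± 0.20, adjusted p = 0.00461), which encodes A20, an inhibitor of NF-kB signalling. Those that fell were Map3k14, the kinase NIK of the non-canonical NF-kB pathway (-0.84 ± 0.19), the deubiquitinase Cyld (-0.58 ± 0.13) and Tab1, a partner of the kinase TAK1 (-0.54 ± 0.15, adjusted p = 0.0490). The Tab1 call was lost with any 1 array left out. With the replicate block 7 genes of this list rose and 3 fell, where 16.9% of all genes passed. Added were Traf5 (0.72, adjusted p = 0.134 without the block and 0.0178 with it) and Birc3 (0.53, adjusted p = 0.0756 and 0.0287, limma). Tradd, the adaptor that binds the TNF receptor 1 death domain, changed by -0.03 ± 0.18 (adjusted p = 0.931), and Ripk1 lacked a probe set with just 1 symbol and was not analysed here. Without NOD.Idd3 unstimulated replicate 2 or NOD PGN replicate 1, 2 genes of this list rose, and without either NOD.Idd3 PGN array 3 rose. The number that fell went to 0 without NOD unstimulated replicate 2, NOD PGN replicate 2, NOD.Idd3 PGN replicate 1 or either NOD.Idd3 unstimulated array, and to 1 without NOD PGN replicate 1 or NOD.Idd3 PGN replicate 2.

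Of 14 genes listed for TNF shedding and mRNA control, all were measured, 4 rose and 1 fell (median change 0.17). Mapkapk2, the kinase MK2 that acts on TNF mRNA stability and translation, rose by 1.27 ± 0.16 (adjusted p = 0.00189), and Map3k8 (TPL2), a kinase upstream of ERK in TNF production, by 1.11 ± 0.28. Zc3h12a, the RNase Regnase-1, rose by 1.35 ± 0.29, and Rhbdf2 (iRhom2), which carries the TNF-shedding protease ADAM17 to the cell surface, by 0.88 ± 0.17. Zfp36l2, an mRNA-destabilising zinc finger protein, fell by 1.88 ± 0.21 (adjusted p = 0.00111). Adam17 changed by -0.20 ± 0.15 (adjusted p = 0.443). The number that rose was 1 without NOD.Idd3 unstimulated replicate 2, and 2 without NOD PGN replicate 1, NOD unstimulated replicate 2 or NOD.Idd3 PGN replicate 1, and 2 fell without NOD unstimulated replicate 1. With a term for the RR1 suffix of 3 array names, 2 rose, as Zc3h12a (adjusted p = 0.0523) and Map3k8 (adjusted p = 0.0812) no longer passed.

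Over the 4 lists 27 of 81 measured genes passed, members included, where 11.3% of all genes did. The members and lists were chosen with earlier results of these data known, so this count is a description without a test. Of the 22 that are not members, 7 passed with each of the 8 arrays left out in turn: Cd40, Tnfrsf13b, Tnfrsf21, Traf1, Tnfaip3, Zfp36l2 and Mapkapk2. The other 15 lost the call in at least 1 of those fits. With the RR1 term 6 of the 22 no longer passed: Tnfrsf8 (adjusted p = 0.0670), Tnfrsf22 (0.0510), Cflar (0.0605), Tab1 (0.0864), Zc3h12a and Map3k8. No gene of the 4 lists passed for the difference in PGN effect or for the strain difference averaged over conditions. With the block 1 did in the averaged strain difference, Tnfrsf13c (-1.46), the BAFF receptor of B cells. With PGN, Tnfrsf13c changed by 0.91 ± 0.42 averaged over strains (limma, adjusted p = 0.220, and 0.0126 with the block). The B cell marker sums were lower in NOD.Idd3 and lower with PGN. What B cell RNA contributed to the Tnfrsf13c values was not tested.

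**Figure D4:**
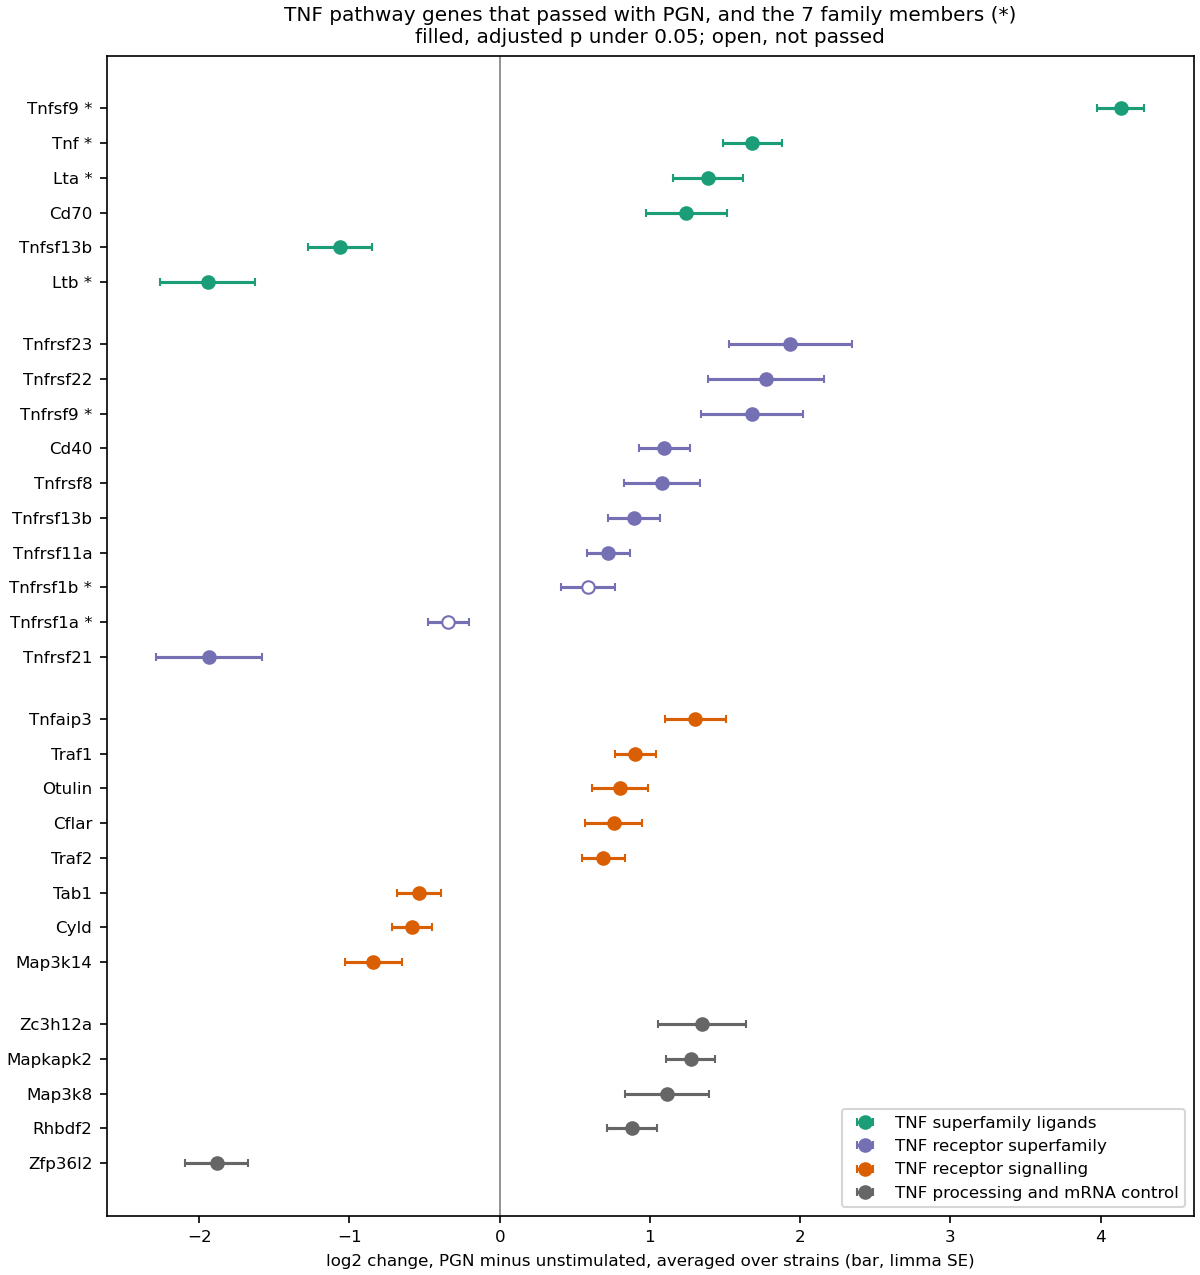
Change with PGN averaged over strains (log2, x axis) for the genes of the 4 lists that passed and for the 7 TNF family genes (starred), with the standard error as a bar and filled points for an adjusted p under 0.05. Tnfsf9 at 4.13 is the largest rise, and Ltb and Tnfrsf21, both at -1.94, are the largest falls.

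Neighbouring genes were read in the order of RefSeq's GRCm38.p6 annotation, after values were known. On chromosome 17 the order was Lst1, Ltb, Tnf, Lta and Nfkbil1, so that the ligand that fell lies next to a ligand that rose. Lst1, a leukocyte-specific transcript, fell by 0.80 ± 0.16 (adjusted p = 0.0131, limma), and Nfkbil1 changed by -0.39 ± 0.17 (adjusted p = 0.186). Tnfsf9 lies on the same chromosome between Tubb4a (-0.52 ± 0.30, adjusted p = 0.331) and Cd70, with Tnfsf14 after it, so that 3 ligand genes in a row had changes above 1, of which that of Tnfsf14 did not pass. Tnfrsf1b lies next to Tnfrsf8, and Tnfrsf9 between Park7 (-0.28 ± 0.21, adjusted p = 0.457) and Per3 (-0.23 ± 0.22, adjusted p = 0.572). Beyond Park7 lies Errfi1, which rose by 1.62 ± 0.21 (adjusted p = 0.00189, limma). Near Tnfrsf1b, Vps13d rose by 1.07 ± 0.16 (adjusted p = 0.00371). Scnn1a, next to Tnfrsf1a, changed by -0.96 ± 0.21 (adjusted p = 0.0207).

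The genes most like each member that passed were taken as the 3 with the smallest root mean square difference over the 8 arrays, each gene centred on its own mean. For Tnf they were Nfkbib (0.178), which encodes an inhibitor of NF-kB, Zc3h12c (0.181) and Clcn7 (0.225). For Tnfsf9 they were Edn1 (0.402), the endothelin-1 precursor, Inhba (0.420), a subunit of activin A, and Ptx3 (0.462), a soluble pattern recognition protein. Lta was nearest to Rbmx (0.140), Dglucy (0.174) and Elmod3 (0.176). Ltb was nearest to Abcc3 (0.163), Pigb (0.194) and Cd300lb (0.215), and Tnfrsf9 to Rcan1 (0.202), Sdc1 (0.236) and Micall2 (0.251). All 15 genes passed for the PGN effect, which their choice by likeness to genes that passed already favours. The nearest genes to Tnfsf9 lay further from it than those of the other 4 members. This measure grows with the size of a change, and Tnfsf9 changed most. Pearson correlations over the 8 arrays were 0.980 to 0.993 for the genes nearest Tnfsf9. They were 0.965 to 0.989 for those of the other members.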

How the data were processed

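RNA of 8 samples was hybridised to 1-colour arrays. The authors deposited intensity values on a linear scale, made with RMA per the submitters' processing notes (version not given in the sources used here). Values were taken to log2 with no further normalization. No detection calls were used, so a dim value has no stated limit, and the number of arrays limits the precision. Of 45101 probe sets, 64 controls, 9160 without a symbol and 932 with several were left out. Symbols came from GEO's platform annotation, and 34741 of the remaining 34945 matched RefSeq's GRCm38.p6 table by Entrez ID and were updated. The probe set with the highest mean stood for each of 18193 genes, 9010 of which had several. Groups were fitted together in limma 3.58.1 (R 4.3.3) with lmFit and eBayes (4 residual and 4.69 prior degrees of freedom), with Benjamini-Hochberg adjustment within each of the 7 contrasts and a threshold of 0.05. The script was tested on simulated data.

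The replicate numbers come from the labels. Same-numbered arrays deviated together from their group means (correlations from 0.17 to 0.42 over the 6 pairs of groups), so the number was taken to pair samples. The main design has no block, and the blocked value stands beside a result where it changed the call or a count by over 1.5 times. All replicate 1 arrays, and no replicate 2 array, carry a shared date in their names, so the block also covers that split. Alternatives were the block, a term for a suffix (RR1) in 3 array names, a filter at the 40th percentile of mean level, averaging a gene's probe sets, no _x_at or _s_at probe sets, quantile normalization, a pseudocount of 16, a variance trend, leaving out each array, and a fit over every probe set, added after the data were seen.

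The members and gene lists were chosen with earlier results of these data known. Named were the 7 members, each list gene that passed for the averaged PGN effect, Ltbr, Tradd, Ripk1, Traf2 and Adam17, the 3 genes most like each member that passed, and the defining markers Cd3e, Ncr1, Ly6g, Csf1r and Itgam, beside an item not reported here. List genes that passed for the averaged PGN effect only with the block were named as well. The promoter of Tnfsf9 and the proteins were not used here.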

Additional observations from a re-analysis of the deposited data

How the results depend on the processing

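With 2 arrays a group, calls within 1 strain were the least stable. The averaged PGN effects of Tnf, Lta, Ltb and Tnfsf9 kept their direction and call under every alternative, as did Tnfsf9 within each strain, in gene-level fits. The replicate block raised the number of genes that passed to 3082 for the averaged PGN effect, 1586 in NOD, 1207 in NOD.Idd3 and 27 for the averaged strain difference. With it Tnfrsf1b (0.59) passed in the average, Ltb (-1.94) and Tnfrsf9 (1.64) in NOD, and Lta (1.09), Ltb (-1.95) and Tnfrsf9 (1.72) in NOD.Idd3, and it changed no other call of the 7 genes. The RR1 term left 235 genes in NOD.Idd3 and took away the calls of Lta in NOD (1.68) and Tnf in NOD.Idd3 (1.27), and a pseudocount of 16 that of Lta in NOD (1.32). Among pathway genes the RR1 term ended the averaged calls of Tnfrsf8 (1.04), Tnfrsf22 (1.78), Cflar (0.67), Tab1 (-0.52), Zc3h12a (1.29) and Map3k8 (1.11), the pseudocount those of Tnfrsf8 (0.77) and Map3k8 (1.11), and the mean of probe sets those of Tnfsf13b (-0.50), Tnfrsf22 (1.08) and Tab1 (-0.38). Tab1 was also lost with quantile normalization (-0.43) and the trend (-0.54), and the trend gave 8 rises in the signalling list in place of 5. The mean of probe sets made Tnfrsf1b pass in the average (1.36), in NOD (1.46) and in NOD.Idd3 (1.26), and a variance trend did so in the average (0.59). Ltb in NOD (-1.94) passed with the 40th percentile filter, the mean of probe sets, no _x_at or _s_at probe sets and the trend, and Ltb in NOD.Idd3 (-1.95) with the trend. By probe set, Tnfrsf1b 1448951_at passed (2.12, NOD 2.06, NOD.Idd3 2.18), and Tnfrsf9 1421481_at did not (0.26) and turned sign in NOD.Idd3 (-0.072). Other changes of sign were in values that did not pass: the Tnfrsf9 difference in PGN effect (-0.0051 with the mean of probe sets, -0.055 with quantile normalization) and its strain difference with the RR1 term (0.26 with PGN, 0.049 averaged), the averaged strain difference of Tnfrsf1b (0.030, mean of probe sets) and the PGN effect of Tradd (0.032 with the RR1 term, 0.028 with the mean of probe sets). The causes were not tested.

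With each array left out in turn, 1111 to 2139 genes passed for the averaged PGN effect, 77 to 876 in NOD and 56 to 624 in NOD.Idd3, and 0 for the strain comparisons. The lone array of a group was then assumed to vary like the other groups. Values of the 7 genes whose call or sign changed ranged as follows. PGN effects averaged: Tnfrsf9 1.36 to 2.00, Tnfrsf1b 0.42 to 0.76. In NOD: Tnf 1.55 to 2.32, Lta 1.38 to 1.99, Ltb -2.56 to -1.32, Tnfrsf1b 0.50 to 1.20. In NOD.Idd3: Tnf 1.24 to 1.62, Ltb -2.52 to -1.37. Of the pathway genes, Tradd changed sign (-0.16 to 0.095) and 15 lost their call in at least 1 fit with their direction kept: Tnfsf13b (-1.27 to -0.85), Cd70 (0.97 to 1.51), Tnfrsf8 (0.80 to 1.36), Tnfrsf11a (0.66 to 0.79), Tnfrsf22 (1.40 to 2.15), Tnfrsf23 (1.57 to 2.30), Traf2 (0.63 to 0.75), Cflar (0.58 to 0.94), Map3k14 (-0.99 to -0.69), Tab1 (-0.60 to -0.47), Otulin (0.68 to 0.92), Cyld (-0.61 to -0.56), Rhbdf2 (0.77 to 0.99), Zc3h12a (1.06 to 1.64) and Map3k8 (0.85 to 1.37). The difference in PGN effect ranged from -0.63 to 0.61 for Ltb and from -0.56 to 0.73 for Tnfrsf9. The unstimulated strain difference ranged from -0.040 to 0.73 for Tnf, -0.25 to 0.26 for Lta, -0.63 to 0.30 for Tnfrsf9 and -0.19 to 0.51 for Tnfrsf1b. With PGN it ranged from -0.36 to 0.028 for Tnf, -0.97 to 0.27 for Ltb and -0.72 to 0.56 for Tnfrsf9. Averaged, it ranged from -0.10 to 0.28 for Tnf, -0.44 to 0.20 for Tnfrsf9 and -0.27 to 0.072 for Tnfrsf1b.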
